A study of Arabidopsis thaliana with 5 samples.

Results

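The MYB transcription factor genes of Arabidopsis thaliana were taken as the 115 nuclear protein-coding genes whose symbol in the gene annotation is MYB followed by a number, out of 27444 nuclear coding genes. Chromatin immunoprecipitation sequencing (ChIP-seq) with an antibody against green fluorescent protein (GFP) had been run on a line of genotype pTREE1:TREE-GFP, in which the TREE1 promoter drives TREE1 fused to GFP. Shoot tissue came from seedlings grown in the dark for 3 days, and all groups carried the fusion. The ethylene group, exposed for 4 h to 10 ppm of this gaseous hormone in hydrocarbon-free air, had 2 ChIP libraries. The air group, exposed to hydrocarbon-free air for 4 h, had 1 ChIP library, and each treatment had 1 input library without antibody. Whether the ethylene replicates are separate seedling batches is not stated in the labels, so they may be technical, and no ChIP library from a line without GFP was used here. With 1 air library, no difference between ethylene and air could be tested against replicate spread, and values are given for each library.

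MYB proteins of plants bind DNA through repeats of the MYB domain, and most members of the numbered family carry an R2 and an R3 repeat. They control pigments and other phenylpropanoids, glucosinolates, waxes and suberin, secondary walls, hair cell fate, and responses to cold, drought and abscisic acid. Several of them repress transcription. The series title names TREE1 together with EIN3, a master regulator of ethylene responses, in transcriptional repression that limits growth of the shoot.

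MYB genes had TREE1-GFP summits less often than coding genes in general, in each of the libraries. A gene was called bound when the summit of a peak fell within 1000 bp beyond either end of the gene or within the last 200 bp inside that end. In ethylene library 1, 23 of the 115 members were bound (20.0%), against 36.3% of all coding genes. Ethylene library 2 bound 34 members (29.6%), against 36.4% of all coding genes. Air bound 28 members (24.3%), against 33.9% of all coding genes. The air count lay between those of the ethylene libraries, so the ethylene replicates differed from each other by more than either differed from air. Among peaks with a score of at least 100, where the score is 10 times the negative log10 of the peak's p-value, the order turned in ethylene library 2. There 17.4% of members and 16.2% of all coding genes were bound, while ethylene library 1 held 6.96 and 15.7% and air 7.83 and 13.1%.

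**Figure D1:**
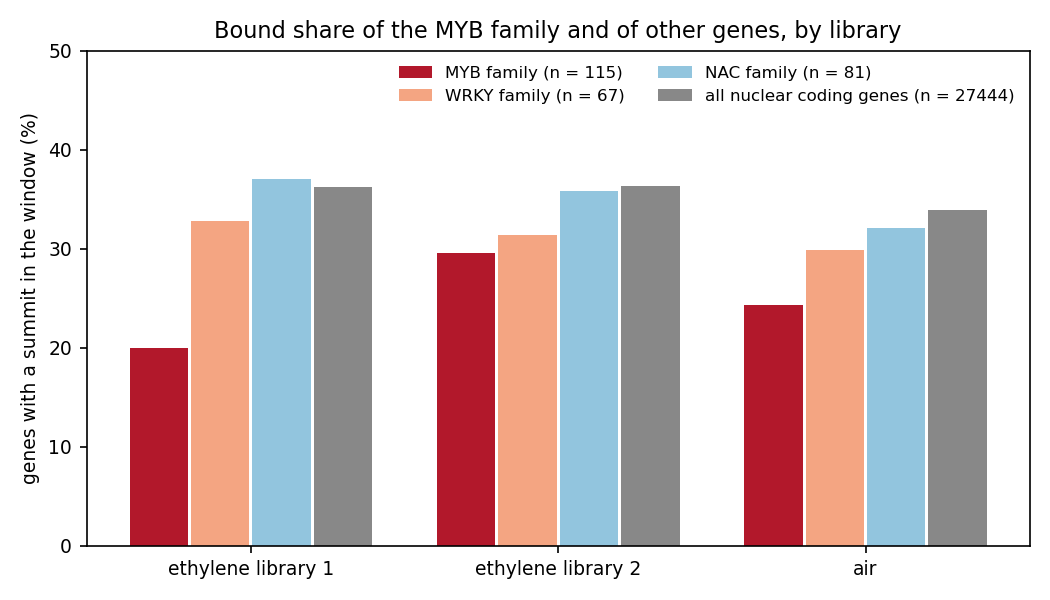
Share of genes with a summit in the window (y axis, %) in each ChIP library (x axis), for the MYB family, the WRKY and NAC families and all nuclear coding genes; each bar is 1 library. The MYB bar is the lowest in every library, at 20.0% in ethylene library 1, 29.6% in ethylene library 2 and 24.3% in air.

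Other transcription factor families were nearer to the genome. Of 67 genes with a WRKY symbol, 32.8% were bound in ethylene library 1, 31.3% in ethylene library 2 and 29.9% in air. Of 81 genes with a NAC symbol, 37.0, 35.8 and 32.1% were bound in the same order of libraries. No test was made of these differences between families.

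MYB genes also stood farther apart from their neighbours than most genes, a trait shared with the other 2 families. The gaps to the next coding gene on both sides summed to a median of 5624 bp for MYB genes, 4241 bp for WRKY genes, 3368.5 bp for NAC genes and 1856 bp for all coding genes. At least 1000 bp was free on both sides of 64 MYB genes (55.7%), of 43.3% of WRKY genes, 34.6% of NAC genes and 19.5% of all coding genes. Shares were therefore also taken among genes with this spacing. There the MYB family had 12.5% bound in ethylene library 1, 20.3% in ethylene library 2 and 18.8% in air. All coding genes of that spacing had 24.1, 26.3 and 23.5%, so the lower share of MYB genes was present within this class as well.

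A summit was found in all libraries for 18 members, which is 15.7% of the family against 21.2% of all coding genes. They were MYB1, MYB3, MYB6, MYB11, MYB16, MYB17, MYB25, MYB27, MYB32, MYB46, MYB67, MYB72, MYB73, MYB74, MYB77, MYB102, MYB109 and MYB118. In all 18 the 3 libraries had a summit in the same merged region, a group of peaks that share at least 1 bp. No library bound 75 members (65.2%), against 49.8% of all coding genes. The other 40 members (34.8%) were bound in at least 1 library, against 50.2% of all coding genes, and 22 of them in 1 or 2 libraries only. Ethylene library 2 alone bound 9 members (7.83%, against 5.28% of all coding genes) and 1 was bound in ethylene library 1 alone (0.870%, against 5.08%). Air shared 2 further members with ethylene library 1 (1.74%, against 4.1%) and 5 with ethylene library 2 (4.35%, against 3.99%). Of the members bound in ethylene library 1, 87.0% were bound in ethylene library 2, but only 58.8% of those bound in ethylene library 2 were bound in ethylene library 1. All coding genes showed no such imbalance, at 74.7 and 74.5%.

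**Figure D2:**
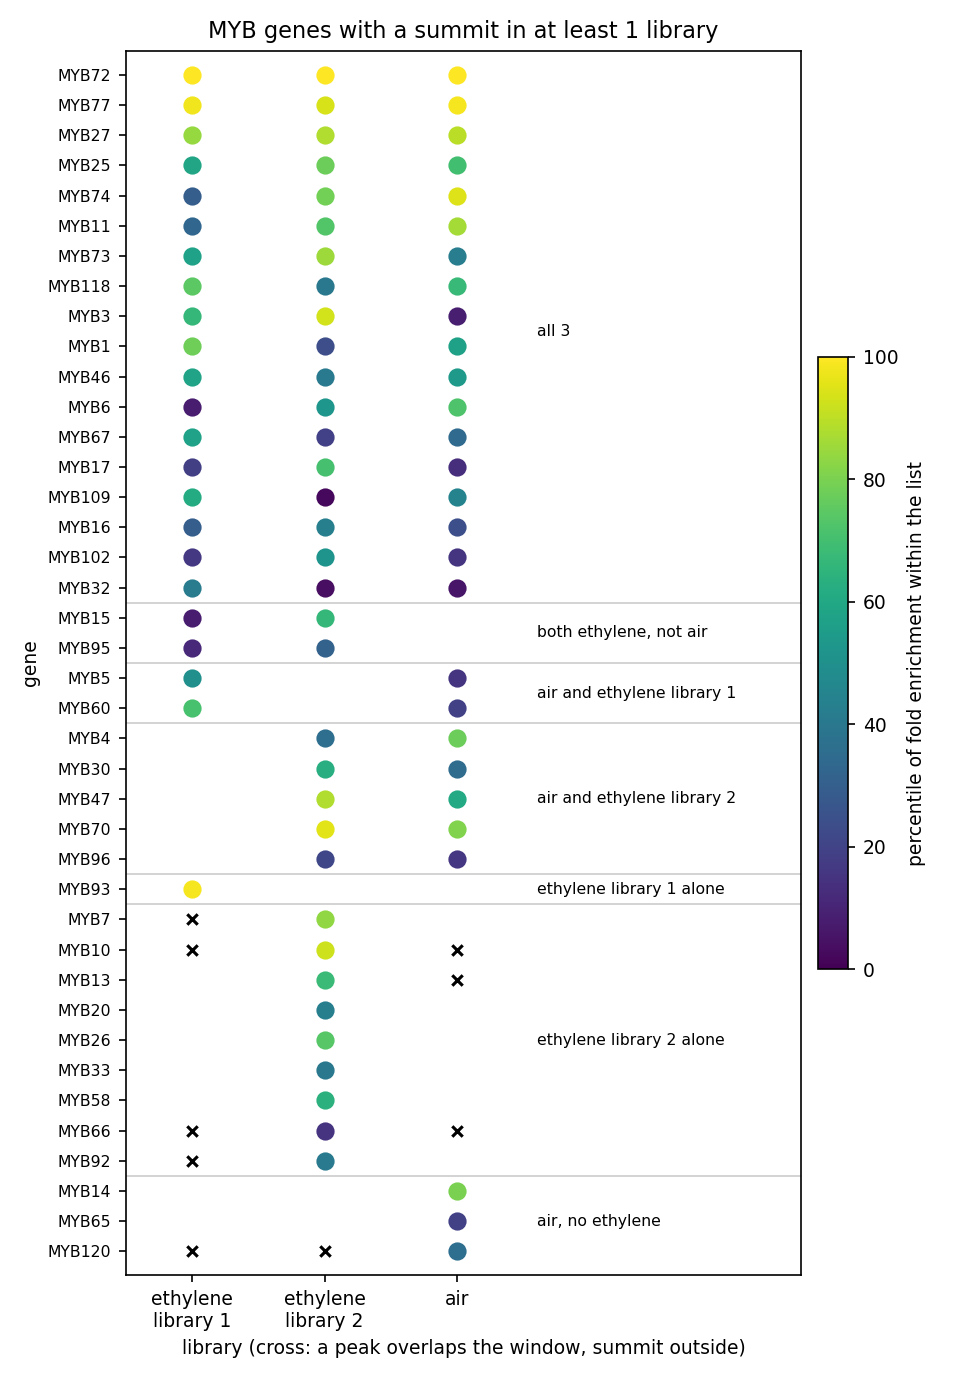
The MYB genes with a summit in at least 1 library (rows) in each library (columns). The colour gives the percentile of the strongest peak's fold enrichment within its own list, a cross marks a peak that overlaps the window with its summit outside, and a blank means no peak; MYB72 and MYB77 are above the 94th percentile in every column.

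Among members bound in all libraries, MYB72 and MYB77 had the smallest sums of fold ranks. The fold enrichment of a peak over its local background is the authors' own value, and its percentile within the list is used here because folds of different lists have no common scale. MYB72 acts in the iron deficiency response and in root-induced systemic resistance. Its peak, on chromosome 1 from 21024268 to 21024947 in ethylene library 1, held 211 tags in ethylene library 1, 220 in ethylene library 2 and 275 in air. This was at least the 99.6th percentile of fold in each list, but the summit lay 961, 979 and 992 bp outside the gene in the same order of libraries. The genes nearest to it were NF-YC2 and AT1G56180, so the MYB72 call rested on the outer edge of the window.

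At MYB77, in contrast, the summit lay inside the gene, 81 bp from its end in ethylene library 1, 128 bp in ethylene library 2 and 97 bp in air. MYB77 works with auxin response factors and promotes lateral root growth. Its peak, on chromosome 3 from 18558992 to 18559579 in ethylene library 1, had a fold of 6.99 in ethylene library 1, 4.85 in ethylene library 2 and 5.3 in air. Those folds stood at the 97.7th, 94.0th and 98.6th percentile of their lists. The tags in the peak, per 1000000 kept tags (CPM), came to 24.0 in ethylene library 1 (exact Poisson 95% interval 20.2 to 28.3), 22.0 in ethylene library 2 (19.1 to 25.2) and 25.8 in air (22.7 to 29.3). These intervals cover counting error only, since each comes from 1 library and holds no replicate spread, and they overlap for all pairs of libraries. No other coding gene had this summit in its window.

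The close relatives of MYB77 were bound as well. MYB73 and MYB70 are grouped with it as factors of abscisic acid and auxin responses. At MYB73 a site on chromosome 4 from 17539694 to 17540194 (ethylene library 1) had a fold of 4.14 in ethylene library 1, 4.18 in ethylene library 2 and 2.87 in air. Its percentiles were 57.6 and 85.5 in ethylene and 30.6 in air. The tags in this peak had the opposite order, with 15.1 and 18.9 CPM in ethylene and 28.1 CPM in air. Tags piled up at the summit came to 3.74 and 3.28 CPM in ethylene and 3.75 CPM in air. A further MYB73 site, nearest to HMA1, had a fold of 2.96 in ethylene library 1 and 3.0 in air. These folds were at the 3.35th and 41.9th percentile, with summits 193 and 50 bp outside the gene. Ethylene library 2 had no summit at that site. MYB70 had summits at both of its sites in ethylene library 2, with folds of 4.03 and 5.06, and at the same sites in air, with folds of 3.55 and 3.65. Ethylene library 1 had no peak in the MYB70 window. All 3 members of this group that carry a MYB symbol were thus bound in ethylene library 2 and in air, and MYB73 and MYB77 in all libraries. Of all coding genes, 36.4% were bound in ethylene library 2, 33.9% in air and 21.2% in all libraries.

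Among the 21 functional groups, the phenylpropanoid repressors formed the largest with no unbound member. MYB4 lowers hydroxycinnamate ester synthesis, MYB3, MYB7 and MYB32 are related repressors, and MYB6 is a relative of them. Of these 5 genes, 3 were bound in ethylene library 1, 5 in ethylene library 2 and 4 in air. All coding genes had 36.3, 36.4 and 33.9% bound in the same order of libraries. The group was singled out by this outcome, and its difference from all coding genes was not tested. Of the 18 members bound in all libraries, MYB3 had the largest excess of its percentile in ethylene over that in air, in each ethylene library. The site shared by the libraries, on chromosome 1 from 8004955 to 8005679 in ethylene library 1, had a fold of 4.32 in ethylene library 1, 4.75 in ethylene library 2 and 2.55 in air. Its percentiles were 66.6 and 93.3 in ethylene and 8.32 in air. The tags in the MYB3 peak had the opposite order, with 20.1 and 17.9 CPM in ethylene and 29.9 CPM in air. The peak was 725 and 650 bp wide in ethylene and 1253 bp wide in air, so it was covered by more tags over a longer stretch in air. Air peaks were wider over the whole list, at a median of 673 bp against 488 bp in each ethylene list.

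The other repressor genes showed no common direction. MYB6 had percentiles of 7.63 and 52.5 in ethylene and 72.1 in air, at a summit 35, 53 and 17 bp outside the gene. MYB32 stood at 41.7 and 3.66 in ethylene and 5.85 in air, at a site whose nearest gene was SLP2. MYB4 was bound in ethylene library 2 and in air at a shared site, 587 bp outside the gene in ethylene library 2 and 468 bp outside it in air. MYB7 had a summit in the window in ethylene library 2 alone, 119 bp inside the gene end, with a fold of 4.09. Ethylene library 1 had a summit deeper inside the MYB7 gene, in a peak that overlapped the window, and no air peak overlapped it. When summits anywhere in the gene counted, MYB7 was bound in both ethylene libraries and not in air.

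Calls that separated ethylene from air were few, and both directions were found within the family. Both ethylene libraries, but not air, bound 2 members (1.74%, against 5.94% of all coding genes). Air, but neither ethylene library, bound 3 (2.61%, against 4.63%). Of the 20 members bound in both ethylene libraries, 10.0% lacked an air summit, against 21.9% of such coding genes. Of the 28 bound in air, 10.7% lacked an ethylene summit, against 13.7%. The counts depended on the ethylene library. Without ethylene library 1, 11 members were bound in ethylene and not in air (9.57%, against 11.2% of all coding genes), and 5 in air and not in ethylene (4.35%, against 8.73%). Without ethylene library 2 these counts were 3 (2.61%, against 11.0%) and 8 (6.96%, against 8.62%). All of these shares were below those of all coding genes. By other settings the air class was slightly above them. It held 5.22% against 4.62% with summits anywhere in the gene counted. With any overlap of a peak it held 5.22% against 5.05%. In the WRKY family 7 genes (10.4%) fell in the ethylene class and 5 (7.46%) in the air class, and in the NAC family 8 (9.88%) and 6 (7.41%).

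None of these 5 calls held when only peaks scoring 100 or more counted, and only MYB15 and MYB120 kept theirs with a window of 500 bp. The ethylene-bound members were MYB15 and MYB95. MYB15 represses cold response genes of the CBF family and promotes lignin formation in defence. Its peak, on chromosome 3 from 8308899 to 8309402 in ethylene library 1, held 74 tags there and 101 tags in ethylene library 2. The peak covered a gene end, with summits 0 and 117 bp outside the gene, and MYB15 was the nearest gene in both. Folds were 3.15 and 3.66, at the 8.05th and 66.5th percentile, with scores of 79.8 and 121. The tags came to 12.6 CPM in ethylene library 1 (exact Poisson 95% interval 9.87 to 15.8) and 10.7 CPM in ethylene library 2 (8.70 to 13.0). No air peak overlapped the window, and the closest air summit lay 21590 bp from the gene. The call rested on a peak low in the list of ethylene library 1 and one above the middle of the list of ethylene library 2.

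MYB95 had a weaker site. Its shared peak, on chromosome 1 from 27977814 to 27978149 in ethylene library 1, had 48 tags and a fold of 3.24 there, and 86 tags and a fold of 3.09 in ethylene library 2. These folds were at the 11.1th and 28.4th percentile, and the nearest gene was AT1G74440. Ethylene library 2 had a further summit 926 bp outside the gene. The closest air summit was 1982 bp from MYB95, outside the window.

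MYB14, MYB65 and MYB120 were bound in air alone. MYB14, a relative of MYB15 that acts in cold tolerance, had an air peak on chromosome 2 from 13285509 to 13286132 with 119 tags and a fold of 3.62, the 80.0th percentile. The summit was 936 bp outside the gene and nearer to a neighbouring gene. The closest ethylene summits were 13785 bp from MYB14 in library 1 and 5532 bp in library 2. MYB65, a GAMYB-like gene controlled by the microRNA miR159, had an air peak of 191 tags and a fold of 2.73, the 19.3th percentile, and MYB65 was its nearest gene. The closest ethylene summits lay 9323 bp from it in library 1 and 9297 bp in library 2. MYB120, a GAMYB-like gene of pollen tubes, had a fold of 2.93 in air, and peaks of both ethylene libraries overlapped its window with summits 1059 and 1287 bp from the gene.

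Relatives thus fell into different classes. Of the 3 genes of the cold and defence group, MYB15 was bound in both ethylene libraries, MYB14 in air, and MYB13 in ethylene library 2 alone. The MYB13 peak in ethylene library 2 was strong, with 223 tags and a score of 222. An air peak overlapped the MYB13 window, with a summit 1042 bp from the gene. Among GAMYB-like genes, MYB33, the closest relative of MYB65, was bound in ethylene library 2 alone at a fold of 3.25, and the other 4 members were unbound.

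Peak strength was also compared at the sites shared by the 3 libraries. The summit height is the number of tags piled up at the summit. It was scaled to 1000000 kept tags and set relative to the median of the 5382 coding genes with such a site. A difference counted when it exceeded 1.5-fold in the same direction in both ethylene libraries. None of the 18 members was higher than in air by this rule and none was lower, against 0.297 and 0.242% of all coding genes. The members' log2 differences from air had an SD of 0.24 for ethylene library 1 and 0.27 for ethylene library 2. The ethylene libraries differed from each other with an SD of 0.31 over the same members, so the height differences from air were no larger than those between the ethylene replicates.

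**Figure D3:**
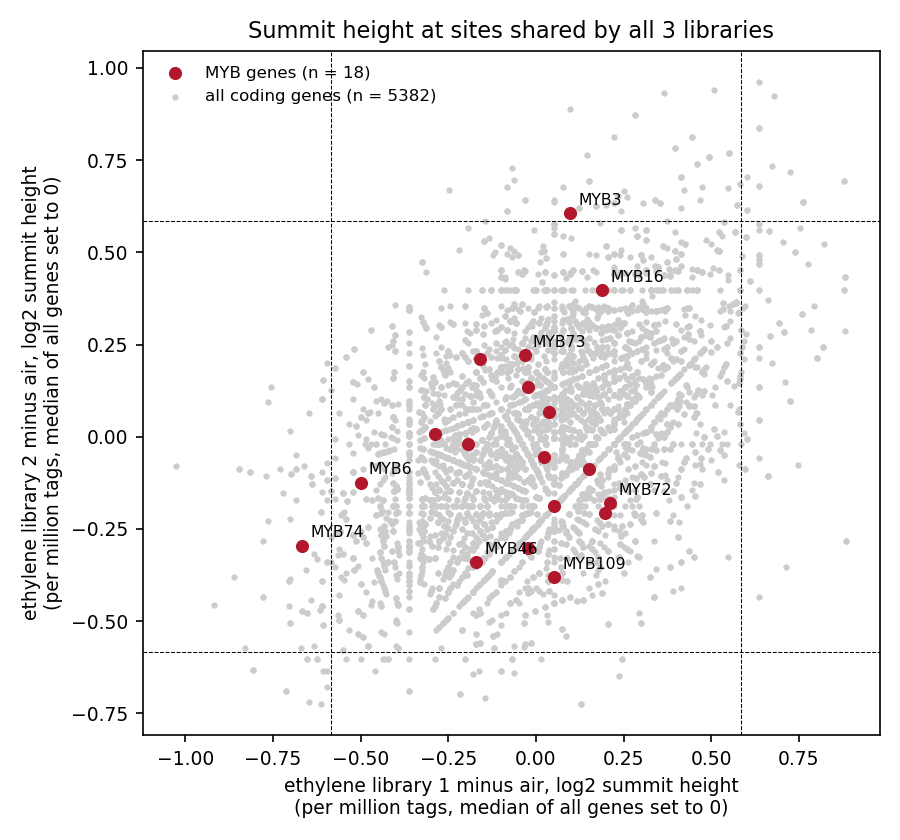
Log2 summit height (CPM) in ethylene library 1 minus air (x axis) and in ethylene library 2 minus air (y axis), with the median of all genes set to 0, for 18 MYB genes and 5382 coding genes bound in all libraries at a shared site. Dashed lines mark 1.5-fold; MYB3 passes it in ethylene library 2 and MYB74 in ethylene library 1, and no MYB gene passes it in both.

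MYB3 and MYB74 each passed the limit in 1 ethylene library. MYB3 had a height of 3.74 CPM in ethylene library 1, 3.91 CPM in ethylene library 2 and 3.43 CPM in air, which gave relative log2 differences of 0.10 and 0.61. MYB74, a salt and osmotic stress gene of the suberin group, had heights of 2.89 and 2.75 CPM in ethylene and 4.50 CPM in air, with differences of -0.67 and -0.30. MYB6 had differences of -0.50 and -0.12. MYB16, a regulator of cutin and epidermal cell shape, had 0.19 and 0.40, at a site whose nearest gene was AT5G15320.

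By percentile of fold at the shared site, MYB3 and MYB73 were higher in both ethylene libraries than in air by more than 25 points. This limit was chosen after the data were seen. The rise was found in 2 of 18 members, against 12.1% of all coding genes with a shared site. No member was lower in both by that limit, against 8.97% of all coding genes. The members' share thus lay near the background in the upward direction. When only peaks scoring 100 or more counted, MYB3 and MYB73, along with MYB1 and MYB17, had a summit in both ethylene libraries and none in air. These 4 members were 3.48% of the family, against 3.41% of all coding genes under that limit. MYB27 then had one in air alone.

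The remaining members bound in all libraries covered several roles. MYB27 had folds of 4.91 and 4.31 in ethylene and 3.99 in air, all above the 84th percentile, although its nearest gene was UMAMIT6. MYB46, a master regulator of secondary wall formation, had 141 and 138 tags in ethylene and 212 in air, with scores of 183, 141 and 129. The gene nearest to the MYB46 summit was DiT1 in every library. MYB46, MYB72 and MYB77 were the members with a score of at least 100 in all libraries. MYB83, the redundant partner of MYB46, was unbound, though peaks of ethylene library 1 and air overlapped its window.

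MYB11, 1 of the flavonol activators, had folds of 3.68 and 3.8 in ethylene and 3.53 in air at a shared site whose nearest gene was ATERDJ3B in every library. Air had a further MYB11 summit, 143 bp inside the gene, with a fold of 3.86. The related genes MYB12 and MYB111 were unbound. MYB74 and MYB102, relatives that respond to osmotic stress and wounding, were each bound in all libraries, with summits between 672 and 906 bp outside the gene at the shared sites. A further MYB74 site lay inside the gene, 79 bp from its end in ethylene library 2 and 30 bp in air. MYB118, a regulator of seed maturation, had folds of 4.54 and 3.25 in ethylene and 3.36 in air, next to AT3G27770. MYB1, MYB25 and MYB109 were bound in all libraries, and each was the gene nearest to its own summits. The MYB25 summit was 57 and 62 bp outside it in ethylene and 41 bp inside it in air, the MYB1 summit was 224 and 114 bp outside it in ethylene and 163 bp in air, and the shared MYB109 summit was 679 and 593 bp outside it in ethylene and 121 bp in air.

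MYB17, which promotes floral meristem identity, had folds of 3.42 and 3.75 in ethylene and 2.63 in air, nearest to AT3G61240. Its percentile was 70.7 in ethylene library 2, but 18.5 in ethylene library 1 and 13.1 in air. MYB67 had folds of 4.14 and 2.95 in ethylene and 2.91 in air, and was itself the nearest gene. The MYB67 percentiles were 57.6 and 18.9 in ethylene and 34.0 in air. By percentile, MYB17 and MYB67 thus differed between the ethylene libraries by more than 1 of these libraries differed from air. By fold this did not hold for MYB17. MYB5, a regulator of seed coat and trichome development, was bound in ethylene library 1 at a fold of 3.99 and in air at 2.67, with MAPKKK7 the nearest gene. MYB47 had a fold of 4.3 in ethylene library 2 and 3.25 in air, and was the nearest gene in both.

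Of the 5 genes of the wax and cuticle group, 1 was bound in ethylene library 1, 2 in ethylene library 2 and 3 in air. All coding genes had 36.3, 36.4 and 33.9% bound in the same order of libraries, and the difference was not tested. MYB30, which promotes hypersensitive cell death and long-chain lipid synthesis, had folds of 3.59 in ethylene library 2 and 2.92 in air. MYB96, a drought regulator of wax, had 2.98 and 2.68 in the same libraries. MYB60, a guard cell gene that promotes stomatal opening, had 4.43 in ethylene library 1 and 2.73 in air. In its air list the summit lay exactly 1000 bp outside the gene, at the limit of the window. The gene nearest to the MYB60 summit was VAP27-2 in both libraries. MYB31 and MYB94 were unbound.

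**Figure D4:**
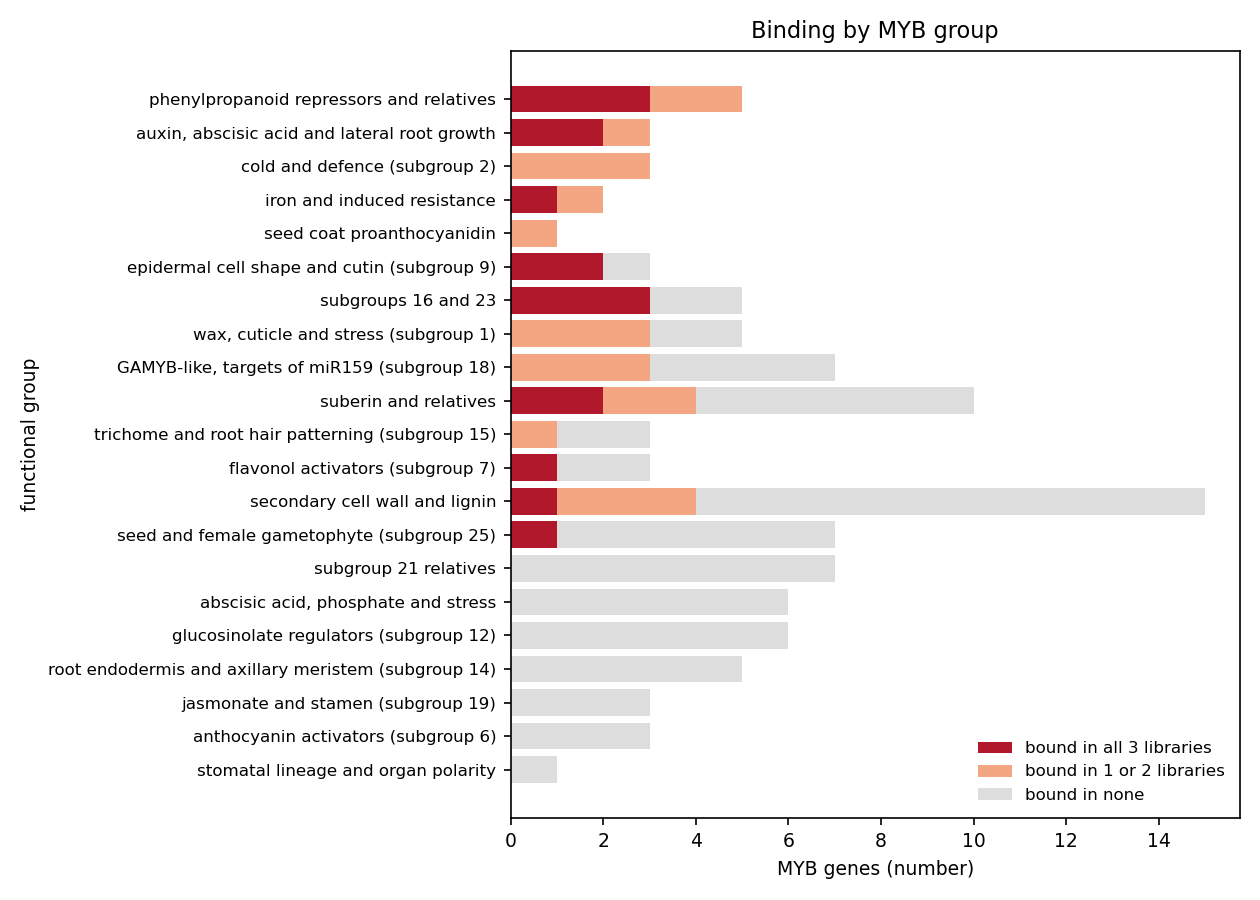
Number of MYB genes (x axis) in each of 21 functional groups (y axis), split into those bound in all 3 libraries, in 1 or 2 libraries, and in none. All 5 phenylpropanoid repressors and relatives are bound in at least 1 library, and all 6 glucosinolate regulators are bound in none. Of all coding genes, 50.2% are bound in at least 1 library and 49.8% in none.

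No library bound any member of 7 groups, which held 31 genes. Being unbound was common, at 65.2% of the family and 49.8% of all coding genes. Whether groups differed from this share was not tested. All 6 glucosinolate regulators, MYB28, MYB29, MYB34, MYB51, MYB76 and MYB122, were unbound. The same held for all 6 genes of the abscisic acid, phosphate and stress group, among them MYB2, MYB62, MYB108 and MYB112. All 7 subgroup 21 relatives, the 5 members of the root endodermis and axillary meristem group, and the jasmonate and stamen genes MYB21, MYB24 and MYB57 were unbound. So were the anthocyanin activators MYB90, MYB113 and MYB114, and MYB88 of the stomatal lineage. The 3 anthocyanin genes are neighbours on chromosome 1 and are not independent observations. The same holds for the glucosinolate genes MYB29 and MYB76, which lie 1442 bp apart on chromosome 5.

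Groups with a mixed outcome included secondary wall and lignin genes, with 1 of 15 bound in ethylene library 1, 4 in ethylene library 2 and 1 in air. MYB20, MYB26 and MYB58 were bound in ethylene library 2 alone, at folds of 3.29, 3.81 and 3.61. The gene nearest to the MYB58 summit was AT1G16480. MYB58 and MYB20 act in lignin synthesis and MYB26 in wall thickening of anthers. In the suberin group 3 of 10 were bound in ethylene library 1, 3 in ethylene library 2 and 2 in air. Beside both groups, all coding genes had 36.3, 36.4 and 33.9% bound in the same order of libraries. Neither group was tested against these shares. MYB93, which restrains lateral root development, had a peak in ethylene library 1, with a fold of 7.56 at the 98.5th percentile but a score of only 58.5. No peak of ethylene library 2 or air overlapped its window, and their closest summits lay 20568 and 20462 bp away. MYB66, which sets the non-hair fate of root epidermis, and MYB10, the iron response partner of MYB72, were bound in ethylene library 2 alone. Peaks of ethylene library 1 and of air overlapped the windows of both. The gene nearest to the MYB66 summit was CA2.

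The bound MYB sites lay farther from the gene than those of coding genes in general, as did those of the WRKY and NAC families. The strongest summit of a bound member was a median of 614 bp outside the gene end in ethylene library 1, 583 bp in ethylene library 2 and 512 bp in air. For WRKY genes the medians were 425.5, 387 and 539 bp, for NAC genes 263, 395 and 221.5 bp, and for all bound coding genes 132, 139 and 130 bp. The WRKY median in air was thus above that of the MYB family. Among genes with 1000 bp free on both sides, the medians were 636, 111 and 573 bp for MYB genes and 196, 203 and 191 bp for all coding genes. The greater distance was thus present in ethylene library 1 and in air within that class, and in ethylene library 2 the order turned. Only 8, 13 and 12 members remained in these subsets. With the outer limit of the window at 500 bp, 9 members stayed bound in ethylene library 1 (7.83%), 18 in ethylene library 2 (15.7%) and 16 in air (13.9%). All coding genes kept 30.1, 30.0 and 27.9%, so the narrower window took more calls from the MYB family.

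**Figure D5:**
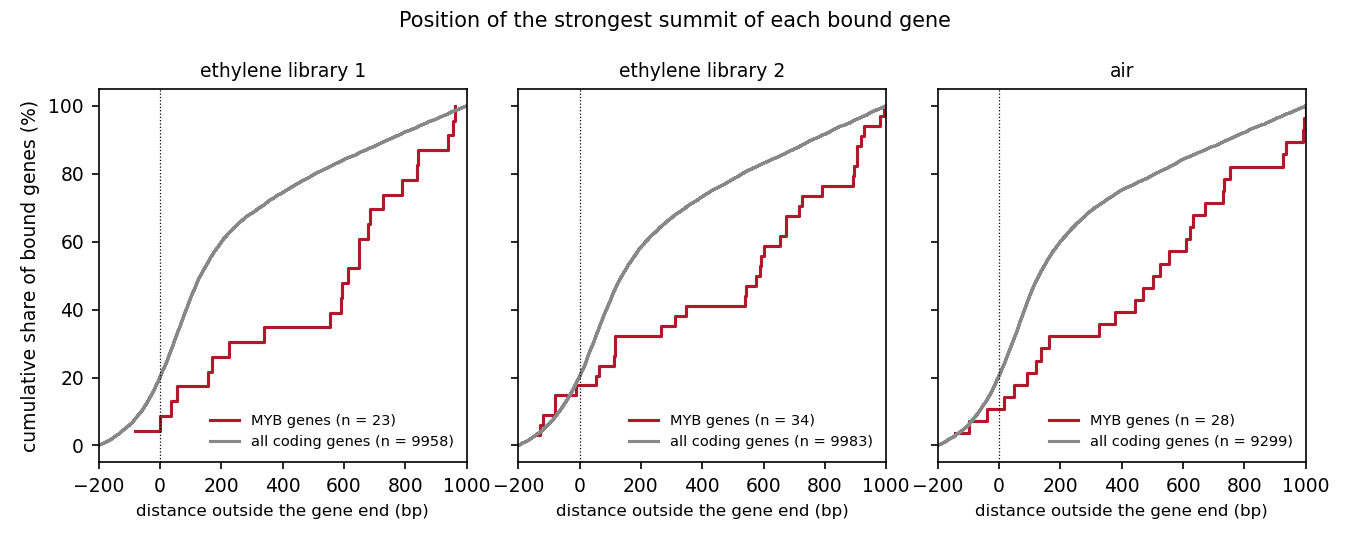
Cumulative share of bound genes (y axis, %) by the distance of the strongest summit outside the gene end in bp (x axis, negative values are inside the gene), for MYB genes and all coding genes in each library. The MYB curve runs below that of all genes over most of the range outside the gene, with medians of 614, 583 and 512 bp against 132, 139 and 130 bp.

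Part of these calls belonged as much to a neighbour. A summit was nearest to the MYB gene itself for 12 of 23 bound members in ethylene library 1 (52.2%), 23 of 34 in ethylene library 2 (67.6%) and 18 of 28 in air (64.3%). For all bound coding genes these shares were 66.2, 67.5 and 65.5%. Counting only such summits left 10 members bound in all libraries (8.70%, against 11.5% of all coding genes). Among them were MYB1, MYB3, MYB6, MYB25, MYB73, MYB74, MYB77 and MYB102. MYB15 remained bound in both ethylene libraries, and MYB65 and MYB120 in air.

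The median distance of the 75 unbound members to the nearest summit was 4616 bp in ethylene library 1, 5219 bp in ethylene library 2 and 5314 bp in air, and 3484 bp to the nearest summit of any library. MYB21, MYB34 and MYB51 had an air summit inside the gene, farther than 200 bp from its ends, and MYB99 had one in ethylene library 1. Just outside the window lay MYB10, bound in ethylene library 2 but 1006 bp from an air summit, MYB43, 1020 bp from one, MYB31, 1082 bp from a summit of ethylene library 1, and MYB119, with summits at 1276 and 1418 bp in ethylene and 1312 bp in air. Just inside it lay MYB60 at 1000 bp and MYB32 at 995 bp, both in air. The strength of bound sites was not shifted in the same direction in every library. Among bound members 34.8, 52.9 and 28.6% had a strongest peak scoring at least 100 in ethylene libraries 1 and 2 and air. All bound coding genes had 41.6, 42.6 and 37.2%. The median percentile of fold was 57.6 in ethylene library 1, 63.2 in ethylene library 2 and 49.4 in air for bound members, against 54.3, 53.1 and 52.6 for all bound coding genes.

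The chromosomes did not hold equal shares of the bound members. Chromosome 3 had 28 members, of which 10 were bound in ethylene library 1, 12 in ethylene library 2 and 11 in air, and 8 in all libraries. Chromosome 5 had the most members, 35, of which 2 were bound in ethylene library 1, 6 in ethylene library 2 and 4 in air, and 2 in all libraries. All coding genes showed similar shares on both chromosomes, at 37.0% in ethylene library 1, 37.1% in ethylene library 2 and 34.7% in air on chromosome 3, and 37.1, 36.8 and 34.1% on chromosome 5. No test of the difference between chromosomes was made.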

How the data were processed

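BWA alignments to TAIR10 are named in the submitters' processing notes. MACS 1.4.2 had been run on each ChIP library with its treatment's input as control, at a p cutoff of 1e-05 and 1 tag kept per position, per the file headers. Both ethylene lists share 1 input. The protein is named as in the labels, although run names in the headers carry another name and the name of the air run has a 2 as its replicate number. Kept tags numbered 5884897 in ethylene library 1, 9459860 in ethylene library 2 and 9325092 in air, after 53.7, 48.6 and 49.7% of tags had been dropped as duplicates. The lists held 9156, 9958 and 8602 peaks. The deposited values are, per peak, a tag count, a score (10 times the negative log10 of p), a fold enrichment (a ratio) and an FDR in percent. The deposited summit lists give the pileup of tags as a signal.

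The remaining steps were computed here. The software was Python 3.11.15 with pandas 2.3.3, numpy 2.4.6 and scipy 1.17.1, and figures used matplotlib 3.10.9. Gene symbols and positions came from a TAIR10.1 table without strand, so gene starts and ends were not separated and a planned window at the start was not run. Its positions were checked by moving summits by up to 2000 bp: fewest summits fell inside coding genes at no shift, for 15 of 15 combinations of library and chromosome. No gene position is printed. The planned promoter motifs were not run, as no sequence was used here. The gene calls were tested on simulated data.

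Members, 21 functional groups (103 of the 115 members) and the naming rule were chosen with earlier results of these data known. The rule took the 10 members with the lowest summed fold ranks among those bound in every library, all members bound in both ethylene libraries and not air or in air and no ethylene library, and up to 3 bound members per group. Further names were chosen after their values were seen. Lists are described by counts beside all coding genes, without a set test. Alternatives to the window, the peak limits and the gene assignment were recomputed.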

Additional observations from a re-analysis of the deposited data

How the results depend on the processing

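Main counts were 23, 34 and 28 members bound in ethylene library 1, ethylene library 2 and air, 18 in all, 2 in both ethylene libraries without air, and 3 in air without ethylene. A score of at least 100 gave 8, 20 and 9 bound, and 3 in all (2.61%, against 6.52% of all coding genes). It gave 4 in the ethylene class (3.48%, against 3.41%) and 1 in the air class (0.870%, against 3.06%). None of these 5 was among the members of those classes by the main call. A window of 500 bp gave 9, 18 and 16, with 4 in all (3.48%, against 16.3% of all coding genes). It lost MYB95 from the ethylene class, where MYB67 was new, and MYB14 and MYB65 from the air class, where MYB11 and MYB46 were new. Nearest genes alone left 12 in ethylene library 1 (10.4%, against 24.0% of all coding genes) and 18 in air (15.7%, against 22.2%). They left 10 in all (8.70%, against 11.5%) and 1 in the ethylene class (0.870%, against 4.41%). Any overlap of a peak gave 4 in the ethylene class (3.48%, against 5.78% of all coding genes) and 6 in the air class (5.22%, against 5.05%). The whole gene gave 6 in the air class (5.22%, against 4.62%). Members with 1000 bp free on both sides, a subset chosen after seeing the data, numbered 8, 13 and 12 bound.

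Leaving out 1 ethylene library gave 3 to 11 members in the ethylene class and 5 to 8 in the air class. Without ethylene library 1 the ethylene class held 11. These counts are small, and each call is yes or no, so a peak just under the caller's limit counts as absent. An FDR of at most 5% removed no peak. Adding 10 genes with a MYB number among their synonyms moved the counts it was run on by less than 1.5 times. Removing the peaks of chromosome 2 from 3 to 4 Mb, chosen after seeing the data and run on the counts per library alone, changed none of them. No paired analysis was possible because air had 1 library. Ethylene library 1 had the fewest kept tags, and the part of depth in the calls was not tested.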
